A study of Homo sapiens with 6 samples.

Results

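Cells defend themselves against foreign chemicals and oxidants with enzymes and pumps that are treated here as a set of 36 genes, taken from a fixed list of symbols. The list holds UDP-glucuronosyltransferases, glutathione transferases, the antioxidant enzymes controlled by NRF2, aldo-keto reductases and aldehyde dehydrogenases, cytochromes P450 with 2 hydrolases, and drug-exporting ABC transporters. Each gene was represented by 1 probe set with a single symbol, the one with the highest mean signal over the 6 arrays among those without the suffix _x_at. Probe sets with that suffix, whose probes also match other transcripts, were used only if a gene had no other. By this choice 35 of the 36 genes were measured, out of 19775 genes on the array. UGT2B7 is named only, because no probe set carries its symbol in the annotation. The arrays hold RNA of HT-29, a human colon adenocarcinoma cell line, 3 from cells kept with 10 µM 5-aza-2′-deoxycytidine (5-Aza), an inhibitor of DNA methyltransferases, for 72 hours in serum-free medium, and 3 from control cells that received only the solvent of 5-Aza, water and acetate. The methods name the serum-free medium for the treated cells and do not repeat it for the controls. Whether each array stands for a culture of its own is not stated in the sources, and p-values here can measure no more than array-to-array spread, which may be technical. In such whole-culture RNA, fewer cells that express a gene and less RNA per cell cannot be told apart.

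Xenobiotic metabolism runs in steps. Cytochromes P450 and hydrolases open or oxidise a foreign molecule, transferases couple it to glucuronic acid or glutathione, and ABC transporters pump the product out of the cell. The transcription factor AHR switches on CYP1A1, CYP1B1 and ALDH3A1 when it binds aromatic ligands. The transcription factor NRF2 (encoded by NFE2L2) is held back by KEAP1 and, under oxidative or electrophilic stress, binds antioxidant response elements in the promoters of NQO1, GCLM, TXNRD1 and related genes. Colon carcinoma lines often express this NRF2-linked set strongly, and the promoter of GSTP1 is a known target of DNA methylation in several tumours.

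The signals are linear values for each probe set, and the mean of each array without its lowest and highest 2% was 500. The median signal was 83.1 to 85.8 on the 5-Aza arrays and 71.5 to 76.7 on the control arrays. The probe sets of a bacterial transcript (TrpnX) reached 22.6 to 42 on the arrays, and a signal above the TrpnX level of its own array is called above background here. By this measure the chosen probe sets of 29 of the 35 genes were above background on all 6 arrays, those of 4 on some of them (UGT2B17, CYP1A1, ABCB1 and ABCC2) and those of 2 on none (UGT2B15 and AKR1C2, which have brighter _x_at probe sets). Of 10 markers of colon epithelium 8 were above background on all arrays, EPCAM at 19976 or more, while CDX1 (7.6 to 20.8) and CDX2 (10.4 to 91.6) were not. Of the markers of other cells, those above background on all arrays were 1 of 4 measured for leukocytes (LYZ, 19666 or more), 1 of 6 for fibroblasts (COL1A1, 216 to 390), 1 of 4 for endothelium (PECAM1, 117 to 200) and 2 of 5 for hepatocytes (SERPINA1 and TTR, 638 or more). PTPRC was at 34.6 or less and ALB at 63.2 or less.

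In these genes control replicate 2 differed from the rest. It had the highest of the 6 signals for 20 of the 35 members, or 57.1%, while 18.6% of all genes had their highest signal there. Among the 25 members with a mean signal of 500 or more it was the highest for 18, against 25.9% of the 7819 genes with a mean that high. On the log2 scale, control replicate 2 lay above the mean of the other 2 controls by a median of 0.33 over the members, where the median over all genes was -0.0041. The corresponding medians were -0.12 for control replicate 1 and -0.11 for control replicate 3. After quantile normalization 17 of the members (48.6%) were still highest on control replicate 2, against 21.1% of all genes. Every fold change below was therefore also computed without that array. For ACTB, the gap of 3′ over 5′ signal, which widens as RNA degrades, was 0.57 on the log2 scale on this array, 0.46 and 0.60 on the other controls and 0.64 to 0.80 on the 5-Aza arrays. The summed signal of the 10 epithelial markers was highest on it too (153700, against 121000 to 136600 on the other 5 arrays). Single markers differed: CDH1, KRT8, KRT18, KRT19 and LGALS4 were highest on it, while EPCAM, KRT20, VIL1, CDX1 and CDX2 were highest on other arrays. The part of these differences in the results was not tested.

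**Figure D1:**
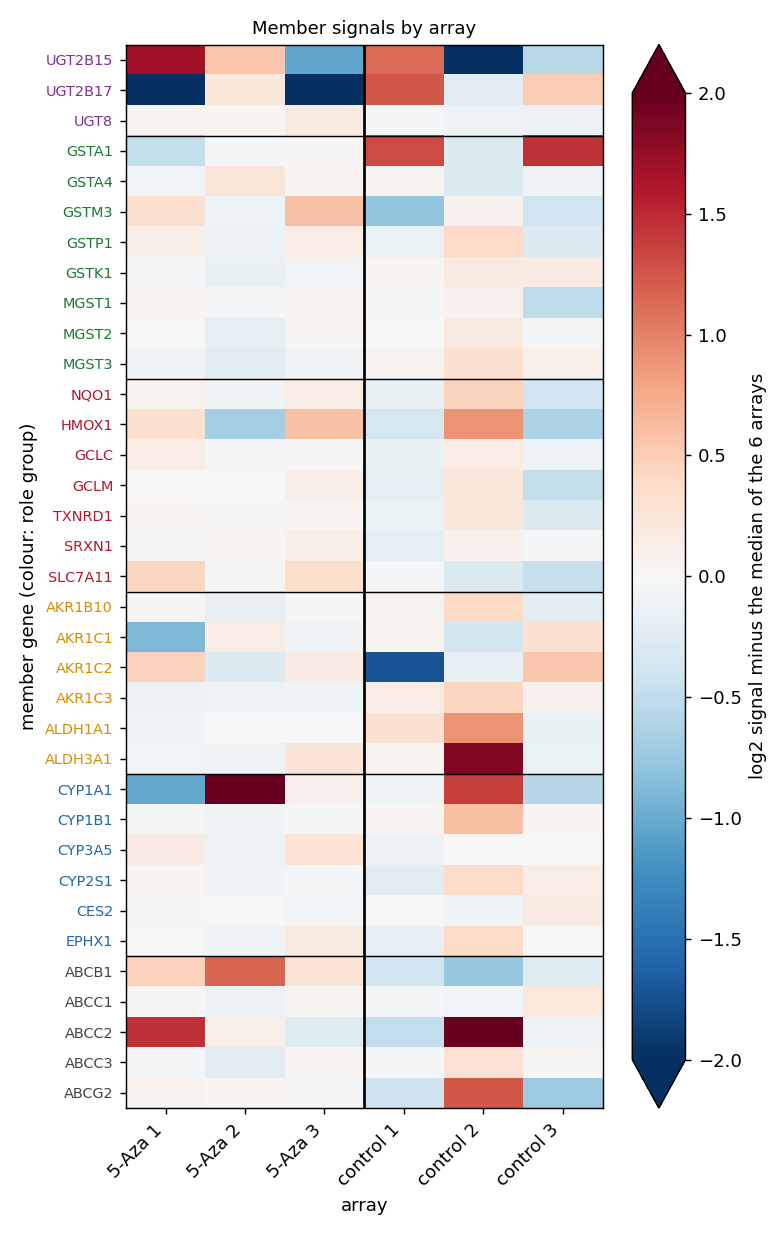
Log2 signal of the 35 measured members on each array, minus the median of the 6 arrays for that gene (colour scale cut at -2 and 2). Columns are the 3 5-Aza and the 3 control arrays, rows are genes grouped by role, and the column of control replicate 2 is reddest for 20 of the 35 genes.

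After 5-Aza treatment 20 of the 35 genes differed from control cells by less than 0.2 on the log2 scale, and 17 did when control replicate 2 was left out. The share of all genes under this limit was not counted. These counts take the fold changes without their 95% intervals, which were wide for HMOX1 (-1.25 to 1.46), ABCC2 (-2.36 to 2.10) and ABCG2 (-1.37 to 1.36). Of the 35 members, 17 had a higher and 18 a lower mean log2 signal, with a median log2 fold change of -0.0057, where the median of all genes was 0.038 and 54.9% of all genes were higher. At an adjusted p under 0.05 in limma 0 members were higher and 0 lower, as for all genes (0.0% in each direction), and the smallest adjusted p among the members was 0.566. At an unadjusted p under 0.025, the threshold of the methods for this comparison, 1 member was higher (ABCB1), or 2.86%, against 3.01% of all genes. In the lower direction 0 members passed, against 0.915% of all genes. The split over all genes depends on the scaling, since median centring gave 1.67% in the higher and 3.14% in the lower direction. At an unadjusted p under 0.05 in limma 2 members were higher (ABCB1 and SLC7A11), against 5.33% of all genes, and 0 lower, against 1.89%. The shares of higher members were thus close to those of the whole array.

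The precision over these arrays bounded some of these values and left others open, at a share near that of all genes. For 21 of the 35 members (60.0%) the 95% interval of the fold change lay within 2-fold in either direction, which held for 53.0% of all genes. The 14 others include weak signals such as UGT2B17 and CYP1A1, and ALDH3A1 and ABCG2, for which control replicate 2 lay far out. Every 5-Aza array lay above every control array for 3 members (UGT8, SLC7A11 and ABCB1), against 9.92% of all genes, and below every control array for 4 (GSTK1, MGST3, AKR1C3 and CYP1B1), against 6.94% of all genes.

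**Figure D2:**
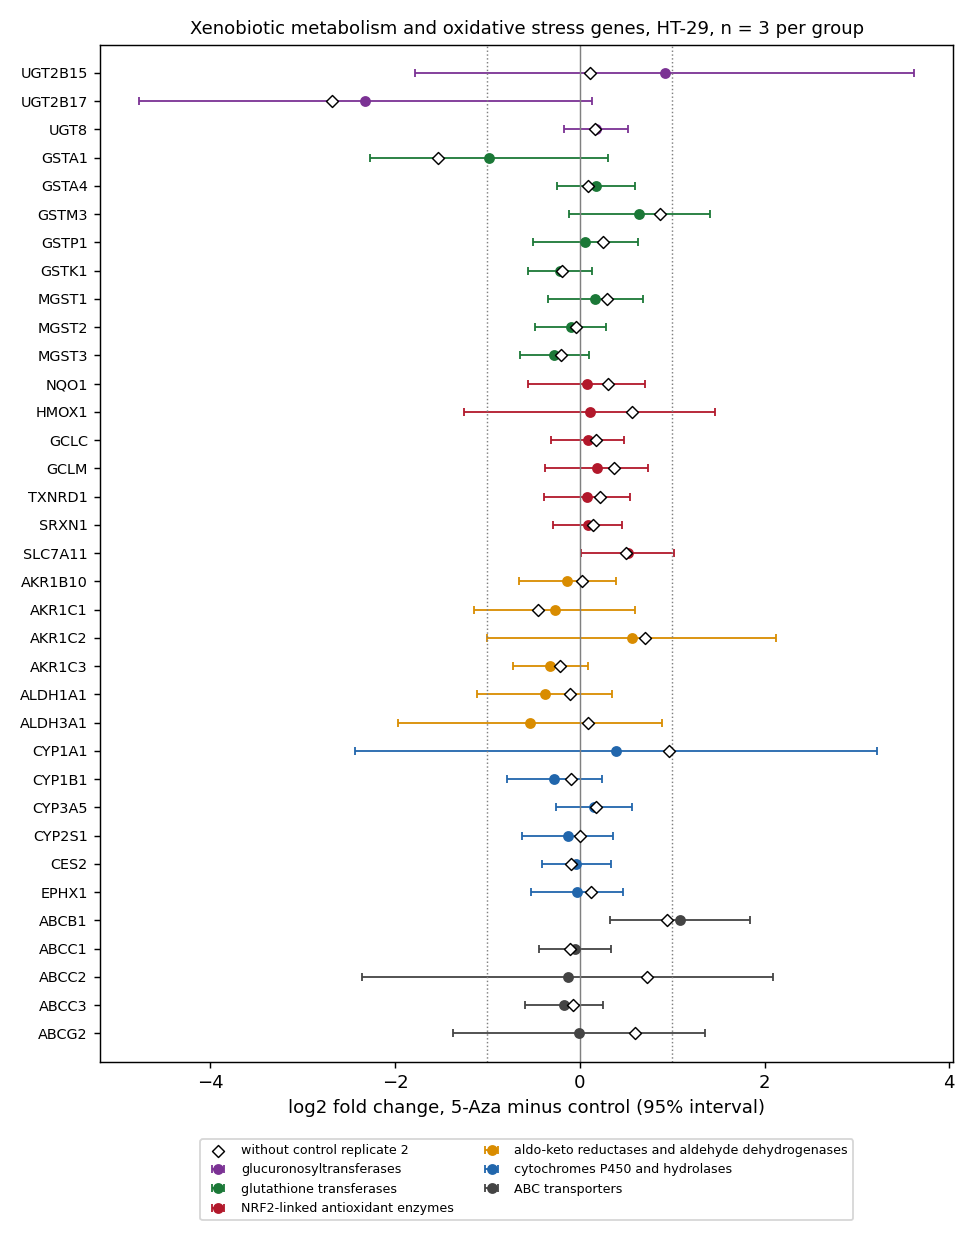
Log2 fold change (5-Aza minus control, limma) of the 35 members with its 95% interval, n = 3 arrays per group. Filled points are coloured by role, open diamonds are the values without control replicate 2, and dotted lines mark a 2-fold change; 21 intervals lie between them.

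The UDP-glucuronosyltransferases couple steroids, bile acids and drugs to glucuronic acid, apart from UGT8, which makes galactosylceramide for membranes. UGT8 had signals of 2554, 2526 and 2785 on the 5-Aza arrays and of 2403, 2288 and 2268 on the control arrays. The groups did not overlap, but the difference was small (log2 fold change 0.18, SE 0.14, adjusted p = 0.831 in limma), and another probe set of the gene had -0.099 with overlapping groups. UGT2B17, which conjugates androgens, had 0.5, 14.2 and 1.2 after 5-Aza and 29.8, 10.1 and 17.3 in the controls, with 1 of the 6 arrays above background. Its log2 fold change of -2.32 (SE 0.97, adjusted p = 0.710) rests on signals at background and was -0.74 with an added constant of 16, not 1, before log2. Without 1 array it ranged from -3.34 to -1.67. The lowest value, without 5-Aza replicate 2, had an unadjusted p of 0.00199 and an adjusted p of 0.369 in limma. It rests on remaining treated signals of 0.5 and 1.2. UGT2B15 was at 28.9 or less on all 6 arrays with its chosen probe set. A brighter one with the suffix _x_at, whose probes also match other transcripts, had signals of 109.5 to 199 and a log2 fold change of 0.053.

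Glutathione transferases attach glutathione to reactive molecules, either in the cytosol (the GSTA, GSTM and GSTP classes), in mitochondria and peroxisomes (GSTK1) or in membranes (the MGST genes). None of the 8 members passed an unadjusted p under 0.05 over the 6 arrays. GSTP1 was strong in both groups, with 15266, 12849 and 15498 after 5-Aza and 12738, 18180 and 11642 in the controls. Its log2 fold change was 0.058 with a 95% interval from -0.51 to 0.62. HT-29 cells thus had a strong GSTP1 signal without 5-Aza. The interval lay within 2-fold in either direction, but it measures only the spread between these arrays.

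GSTA1, an alpha-class enzyme that also reduces lipid peroxides, had the lowest log2 fold change of the group, -0.98 (SE 0.51, adjusted p = 0.760 in limma). Its signals were 144, 198 and 205 on the 5-Aza arrays and 499.5, 166 and 552 on the control arrays. Control replicate 2 lay among the treated arrays here, the reverse of what most members showed. Without it the log2 fold change was -1.53, at an unadjusted p of 0.00195 and an adjusted p of 0.296 in limma. Every 5-Aza array then lay below both remaining controls. Leaving out the control that lay among the treated arrays separates the groups by construction, so these values are not an independent result. The other probe set of GSTA1 had -0.24 with overlapping groups. GSTK1 had 4336, 4054 and 4303 after 5-Aza against 4622, 5085 and 5019 (log2 fold change -0.21, SE 0.14). MGST3 had 3344, 3083 and 3399 against 3727, 4394 and 3804 (-0.28, SE 0.15). Both were lower on every 5-Aza array than on any control array, at unadjusted p of 0.173 and 0.117 in limma. Their intervals ran from a decrease to an increase (GSTK1 -0.56 to 0.13, MGST3 -0.65 to 0.097), within 2-fold in either direction. GSTM3 had 111, 82.5 and 132 after 5-Aza and 50.7, 93.0 and 65.9 in the controls (0.65, SE 0.30, and 0.87 without control replicate 2). GSTA4, MGST1 and MGST2 had log2 fold changes of 0.18, 0.17 and -0.100, all with overlapping groups.

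The NRF2-linked genes were strongly expressed with and without 5-Aza, apart from HMOX1. They comprise the quinone reductase NQO1, the haem-degrading HMOX1, both subunits of the enzyme that starts glutathione synthesis (GCLC and GCLM), the thioredoxin reductase TXNRD1, the sulfiredoxin SRXN1 and the cystine importer SLC7A11. All 7 were above background on all 6 arrays. All 7 log2 fold changes were positive, from 0.075 to 0.52 with a median of 0.084, but after median centring of the arrays, which moved the median of all genes from 0.038 to -0.15, 6 of the 7 were negative and SLC7A11 alone was positive. None of them passed an unadjusted p under 0.025 in this fit.

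NQO1 had 10714, 9715 and 11302 on the 5-Aza arrays and 9248, 13825 and 7866 on the control arrays, a log2 fold change of 0.075 with an interval from -0.56 to 0.71. Other strong probe sets of NQO1 had -0.29 and 0.042, with overlapping groups. TXNRD1 had 7637, 7258 and 7603 against 6771, 8710 and 6115 (0.075, interval -0.39 to 0.54). GCLM had 1604, 1597 and 1753 against 1415, 1879 and 1150 (0.18, interval -0.37 to 0.74). With the chosen probe set of each of these genes, control replicate 2 was the highest array and the treated arrays lay between it and the other controls. GCLC (0.084, interval -0.31 to 0.48) and SRXN1 (0.084, interval -0.29 to 0.46) had overlapping groups too. A weaker GCLM probe set had 613.5, 531 and 559 after 5-Aza and 486, 479 and 403 in the controls, without overlap. Its log2 fold change was 0.32 (unadjusted p = 0.0953 in limma), and a further GCLM probe set had 0.21 with overlapping groups. HMOX1 was weak and variable, with 130, 63.9 and 154 after 5-Aza and 81.1, 192 and 66.1 in the controls, and its interval from -1.25 to 1.46 decides little.

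SLC7A11 brings in the cystine needed for glutathione. With the chosen probe sets it was the only member of this group without overlap between treated and control arrays. Its signals were 5123, 3855 and 4871 after 5-Aza and 3758, 3131 and 2779 in the controls. The log2 fold change was 0.52 (SE 0.20, 95% interval 0.014 to 1.02, 1.43-fold), with an unadjusted p of 0.0458 and an adjusted p of 0.680 in limma. The other probe sets of the gene had 0.52 and 0.33, with overlapping groups. The unadjusted p moved with the setting, from 0.0021 with trend and robust variance and 0.0194 among probe sets above the median signal to 0.0736 with the replicate block, 0.115 with the SAM-type statistic and 0.161 after median centring, where the value was 0.33. Without control replicate 2 the value was 0.50 at an unadjusted p of 0.0962, and p was also above 0.05 without 5-Aza replicate 1 (0.134), 5-Aza replicate 3 (0.122) or control replicate 3 (0.122).

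Without control replicate 2 the 7 NRF2-linked genes had a median log2 fold change of 0.31, from 0.15 to 0.56, and for 5 of them (NQO1, GCLC, GCLM, TXNRD1 and SLC7A11) every 5-Aza array lay above both remaining controls. Over all members this held for 11 of 35 (31.4%), and over all genes for 17.3%. Control replicate 2 was singled out as the highest array for 20 of the 35 members, 5 of these 7 among them. Leaving it out raises the fold changes of those genes by construction, so these shares are not an independent result. At an unadjusted p under 0.025 none of the 7 passed in that comparison either, and over all members ABCG2 was higher and GSTA1 lower (1 of 35 in each direction, against 3.24% and 1.13% of all genes).

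The promoters of GCLM and TXNRD1 carry the core of the antioxidant response element. They are shown because both genes are textbook NRF2 targets whose chosen probe sets hardly differed between the groups. The 250 bases before the start site are given 5′ to 3′ from RefSeq (GRCh38.p14), with the 9 bases of each match to TGACNNNGC, on either strand, in capitals. The GCLM stretch is chr1:93909431-93909680 on the minus strand, and its match begins 34 bases before the start, read on the opposite strand. That of TXNRD1 is chr12:104215529-104215778 on the plus strand, with a match that begins 99 bases before the start. A second TXNRD1 match, 8 bases before the start, runs across the start and is not shown. Another TXNRD1 window, at a different start site, has a match that begins 102 bases before its start. The windows of NQO1, GCLC and SRXN1 held no match, and no window was listed for HMOX1 and SLC7A11.
GCLM: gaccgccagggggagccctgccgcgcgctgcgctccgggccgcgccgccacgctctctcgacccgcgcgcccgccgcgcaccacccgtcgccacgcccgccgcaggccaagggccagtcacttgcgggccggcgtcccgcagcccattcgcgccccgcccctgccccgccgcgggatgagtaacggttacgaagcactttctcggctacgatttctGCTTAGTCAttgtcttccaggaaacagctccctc
TXNRD1: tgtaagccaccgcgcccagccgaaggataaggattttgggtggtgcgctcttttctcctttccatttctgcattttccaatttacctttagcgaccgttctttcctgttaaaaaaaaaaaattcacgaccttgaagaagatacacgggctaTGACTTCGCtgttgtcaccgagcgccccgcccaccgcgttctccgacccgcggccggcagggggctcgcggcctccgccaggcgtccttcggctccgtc

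Of the 36 listed genes 27 had a promoter window of 300 bases in the table (250 before and 50 after the start), 41 windows in all. The motif TGACNNNGC was found in 8 of these 41 windows (19.5%), in 7 genes, and in 13.3% of all 35116 windows. The core of the xenobiotic response element bound by AHR, GCGTG, was found on either strand in 16 of the 41 windows (39.0%) and in 36.5% of all windows. Such matches are a description of letters and not of binding. CpG dinucleotides, the sites of DNA methylation, numbered from 0 (UGT2B7, UGT2B15 and AKR1C3) to 46 (SRXN1) in a window, with a median of 14 over all windows. The 16 measured members with at least 1 window at or above this median had a median log2 fold change of 0.075, and the 10 below it 0.0091.

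Aldo-keto reductases reduce aldehydes, ketones and steroids, and aldehyde dehydrogenases oxidise aldehydes to acids. AKR1C3, which reduces prostaglandins and steroids, had 4326, 4378 and 4437 after 5-Aza and 5175, 6350 and 4956 in the controls. Every treated array was below every control array, with a log2 fold change of -0.32 (SE 0.16, interval -0.72 to 0.085, adjusted p = 0.755 in limma). Its unadjusted p was 0.0995, and ranged over the settings from 0.00975 with trend and robust variance to 0.228 with the SAM-type statistic. Without control replicate 2 the value was -0.21 at an unadjusted p of 0.203. AKR1B10, a reductase of retinal and other carbonyls, had 8611, 7569 and 8342 against 8853, 11184 and 7262 (-0.13), and the sign turned to 0.026 without control replicate 2.

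AKR1C1 and AKR1C2 are nearly identical in sequence, so their signals on an array are hard to separate. Their chosen probe sets were weak. That of AKR1C1 had 35.9, 75.3 and 64.4 after 5-Aza against 71.0, 52.4 and 83.5 in the controls (-0.27), and that of AKR1C2 stayed at 9.6 or less on all 6 arrays. The bright probe sets of both genes have the suffix _x_at. In AKR1C1 these had signals of 2446 to 4719 and log2 fold changes of 0.18 and 0.26, and in AKR1C2 signals of 1756 to 3941 and values of -0.34 and -0.23. All 4 had overlapping groups. A weaker probe set that carries the symbols of both genes had 83.9, 98.4 and 103 after 5-Aza and 80.4, 65.3 and 50.7 in the controls, without overlap (0.55, unadjusted p = 0.0522 and adjusted p = 0.694 in limma).

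ALDH1A1, which makes retinoic acid, had 6592, 6944 and 6998 after 5-Aza and 8621, 13000 and 6315 in the controls. Its log2 fold change was -0.38 (SE 0.29), and -0.11 without control replicate 2. ALDH3A1, a target of AHR, showed the array difference most plainly among the strong signals. It had 816, 808 and 1013 after 5-Aza, and 873, 3046 and 773 in the controls. Control replicate 2 was thus 1.89 above the mean of the other 2 controls on the log2 scale. The log2 fold change of -0.54 (SE 0.57) became 0.089 without that array.

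Among the cytochromes P450, CYP1B1, which oxidises steroids and aromatic hydrocarbons, had 1796, 1753 and 1781 after 5-Aza and 1914, 2781 and 1876 in the controls. No arrays of the groups overlapped, and the log2 fold change was -0.28 (SE 0.20, adjusted p = 0.823 in limma) over the 6 arrays and -0.093 without control replicate 2. The other 3 probe sets of CYP1B1 had -0.17, -0.58 and -2.05, the last with 5-Aza signals of 24.8 or less. CYP1A1, the classical AHR target, was at background, with 2.6, 51.4 and 6.7 after 5-Aza and 5.9, 18.1 and 3.9 in the controls, and only 5-Aza replicate 2 was above it. CYP3A5, the CYP3A enzyme of the gut, had 3557, 2969 and 3831 against 2932, 3203 and 3145 (0.15, SE 0.16). A weak probe set of CYP3A5 had 72.6 to 95.8 after 5-Aza and 34.7 to 55.6 in the controls, a log2 fold change of 0.80 at an unadjusted p of 0.0187 and an adjusted p of 0.602 in limma, while the 3 strong ones had -0.13, 0.15 and 0.35. CYP2S1 (-0.13), the carboxylesterase CES2 (-0.037) and the epoxide hydrolase EPHX1 (-0.031) had overlapping groups and intervals within 2-fold.

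The drug efflux pump ABCB1 (P-glycoprotein) had the largest positive log2 fold change of the 35 members. Its signals were 72.5, 118 and 62.4 on the 5-Aza arrays and 40.0, 30.4 and 43.8 on the control arrays, and the groups did not overlap. The log2 fold change was 1.09 (SE 0.30, 95% interval 0.33 to 1.85, 2.13-fold), with an unadjusted p of 0.0134 and an adjusted p of 0.566 in limma. The control signals were near background, and that of control replicate 2 was below it. With 16 added to the signals the value was 0.86. Without 1 array it ranged from 0.82 to 1.28, and the unadjusted p was above 0.025 without 5-Aza replicate 1 (0.0284), control replicate 1 (0.0334) or control replicate 2 (0.0434). It was above it as well with trend and robust variance (0.0332), with the SAM-type statistic (0.0262), after quantile normalization (0.0285), after median centring (0.0264) and when its probe sets were averaged (0.0426). A second probe set of ABCB1 had 34.8 to 42.1 after 5-Aza and 4.5 to 59.8 in the controls, with overlapping groups, as did one shared with ABCB4 (0.43).

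The promoter of ABCB1 at its downstream start site is shown because the gene had the only call among the members and DNA methylation acts on CpG dinucleotides. The table lists another, upstream window of the gene with 1 CpG. The 250 bases before the start are given 5′ to 3′ from RefSeq (GRCh38.p14, chr7:87600885-87601134, minus strand), and the 12 CpG dinucleotides are in capitals.
ABCB1: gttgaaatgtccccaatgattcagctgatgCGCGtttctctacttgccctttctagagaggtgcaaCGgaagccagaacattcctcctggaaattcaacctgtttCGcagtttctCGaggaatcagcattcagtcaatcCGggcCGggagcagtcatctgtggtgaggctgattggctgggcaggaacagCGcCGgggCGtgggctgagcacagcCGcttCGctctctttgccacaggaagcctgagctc

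The other transporters differed less. ABCG2, which exports drugs and urate, had 572, 556 and 530 after 5-Aza and 406, 1281 and 328 in the controls. The log2 fold change was -0.0057 (SE 0.54) over all arrays and 0.60 without control replicate 2, at an unadjusted p of 0.0224 and an adjusted p of 0.542. ABCC1 (-0.054) and ABCC3 (-0.17), both exporters of glutathione conjugates, had intervals within 2-fold, with ABCC3 at 8306, 7319 and 8819 after 5-Aza and 8393, 10449 and 8676 in the controls. Other probe sets of ABCC3 had 0.064, 0.27 and 0.57 with overlapping groups, and another had -0.45 with every 5-Aza array below every control array. ABCC2, the exporter of conjugates at the luminal membrane, had 55.0, 20.7 and 15.9 against 13.4, 98 and 18.0, and was above background on 2 of the 6 arrays.

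**Figure D3:**
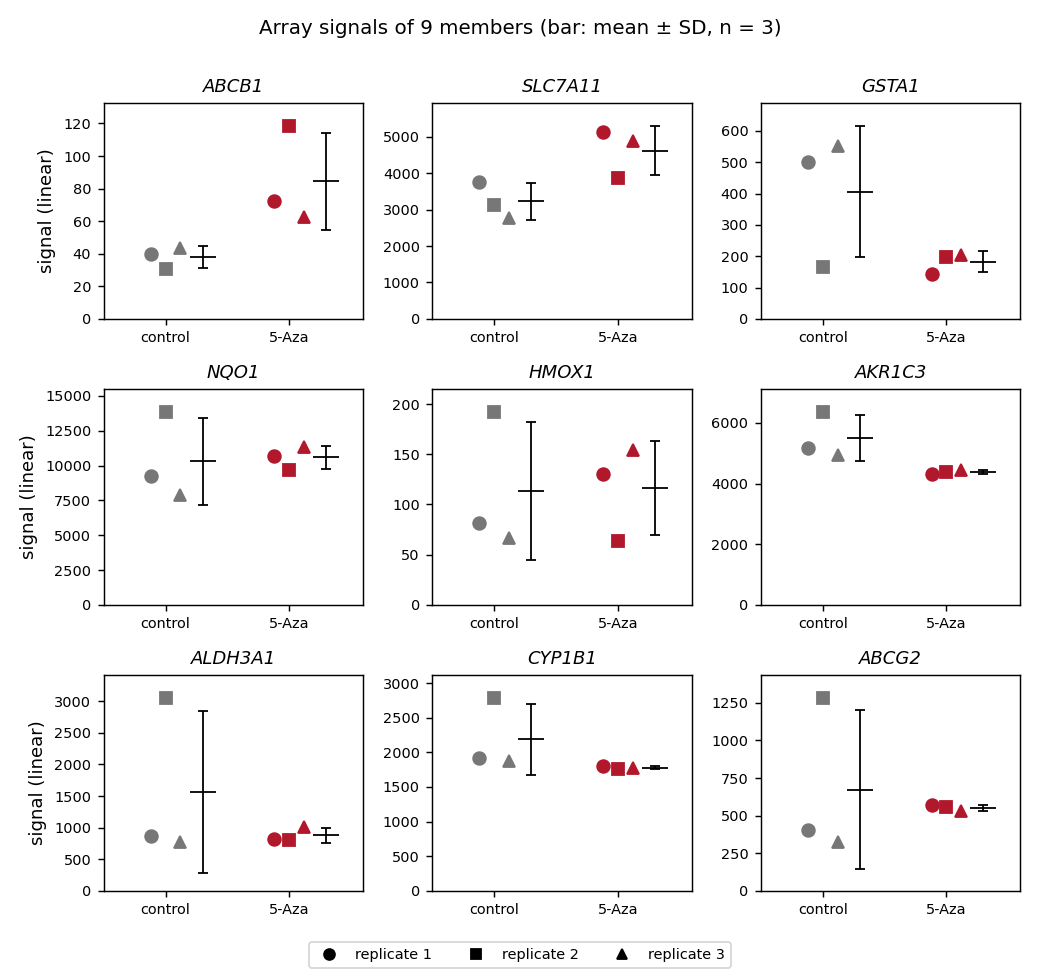
Linear array signals of 9 members of HT-29 cells, grey for control and red for 5-Aza, with a symbol for each replicate number and bars for mean ± SD (n = 3 arrays per group); numbers of the 2 groups do not pair arrays. In NQO1, HMOX1, AKR1C3, ALDH3A1, CYP1B1 and ABCG2 the square of control replicate 2 is the highest point, and in GSTA1 it lies among the treated arrays.

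Other probe sets of the same genes gave a check of the chosen ones. Of the 35 members 20 had 41 further probe sets with a single symbol, of which 17, in 10 genes, had the opposite sign. The widest gaps came from weak probe sets. For TXNRD1, a dim probe set had a log2 fold change of 2.76 (unadjusted p = 0.000995, adjusted p = 0.283 in limma), but its signals were 13.2 to 19.0 after 5-Aza and 3.8 or less in the controls, below background on all 6 arrays, while the strong one had 0.075. For AKR1C1, another dim probe set had 61.2 to 73.1 after 5-Aza and 5.5 to 19.3 in the controls, a log2 fold change of 2.65 (unadjusted p = 0.00152, adjusted p = 0.314), and 1.63 with 16 added. The treated arrays were above background there and the control arrays were not, while the bright probe sets of the gene had 0.18 and 0.26. MGST3 had -0.28 with its chosen probe set and 1.89 with an _x_at probe set, whose control signals ran from 26.9 to 308.

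**Figure D4:**
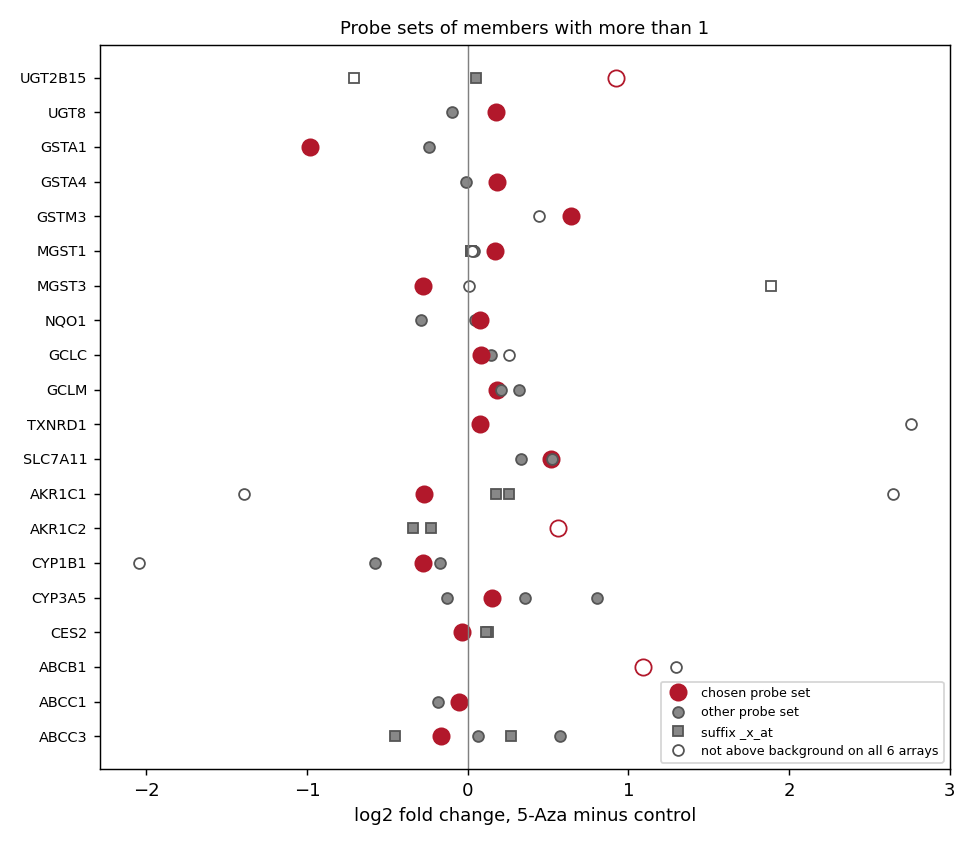
Log2 fold change (5-Aza minus control) of each single-symbol probe set of the 20 members with more than 1. Red points are the chosen probe sets, squares have the suffix _x_at and open symbols were not above background on all 6 arrays; the values beyond 1.5 in either direction belong to open symbols.

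A wider list of 114 other genes of xenobiotic metabolism and antioxidant defence, of which 95 were measured, was examined in the same way. Of these 95, 3 were higher at an unadjusted p under 0.025 (3.16%, against 3.01% of all genes) and 1 was lower (1.05%, against 0.915%). The higher ones were DHRS9, a retinol dehydrogenase (log2 fold change 0.64), CYP24A1, which breaks down vitamin D (1.77), and CYP26A1, which breaks down retinoic acid (1.83). CYP24A1 had 59.0, 40.3 and 85.9 after 5-Aza against 27.4, 7.2 and 22.1, and CYP26A1 13.6, 60.5 and 44.3 against 7.6, 8.6 and 10, so both had controls near or at background. The exporter ABCC4 was lower, with 1454, 1615 and 1683 against 2031, 2230 and 2514 (-0.51, SE 0.16). With adjustment over all probe sets in limma 0 of the 95 passed (smallest adjusted p among these 4 genes 0.598), while at an unadjusted p under 0.05 there were 6 higher ones (6.32%, against 5.33% of all genes) and 4 lower ones (4.21%, against 1.89%). The NRF2 gene itself, NFE2L2, had 6396, 6308 and 5720 against 5803, 5714 and 5053, with overlapping groups. The wider list also had its highest signal on control replicate 2 for 43 of 95 genes (45.3%), among them the antioxidant PRDX1 and TXN.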

How the data were processed

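RNA of HT-29 cells was measured on 6 HGU133 Plus2.0 arrays, 3 of 5-Aza-treated and 3 of control cells, grouped by the sample labels. The deposited table holds linear intensity values, 1 for each of 54675 probe sets and array, which the authors made with the affy package per the labels (version, background correction and summary method are not given in the sources used here). The values show a scaling, with a mean of 500 on every array without the lowest and highest 2%.

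To each value 1 was added before log2. After 61 control probe sets were dropped, the remaining 54614 entered a limma fit (version 3.58.1, R 4.3.3) (group as the only term, empirical Bayes variances, Benjamini-Hochberg adjustment over all probe sets). The methods name SAM; a statistic of that type was an alternative. Each gene was represented by the single-symbol probe set with the highest mean (_x_at only if the gene had no other), and shares of all genes refer to 19775 genes chosen in this way. Intervals are 95% intervals of limma.

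The genes named were all 36 listed ones, and genes of the wider list at an unadjusted p under 0.025. Outside this rule NFE2L2 was named as the NRF2 gene, and KEAP1 and AHR as background. PRDX1 and TXN were picked as examples of genes highest on control replicate 2. Of the 17 probe sets with a differing direction only some were named. The members and lists were chosen with earlier results of these data known. Alternatives were trend and robust variance, the SAM-type statistic, quantile normalization, median centring, a filter on the median signal, 16 added in place of 1, control probe sets kept, the replicate number as a block, _x_at probe sets left out, averaging a gene's probe sets and leaving out each array. The brightest probe set whatever its suffix was added after seeing the data. Arrays with the same replicate number did not deviate together (correlations -0.012, 0.0021 and 0.0097), and no source pairs them. The number of arrays limits the precision. Correlations between arrays were 0.926 to 0.934, so none duplicated another.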

Additional observations from a re-analysis of the deposited data

How the results depend on the processing

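At an adjusted p under 0.05, 0 members were higher and 0 lower under each alternative run. The median log2 fold change of the members stayed between -0.19 (median centring) and 0.13 (without control replicate 2). The count of 1 member higher at an unadjusted p under 0.025 was 0 with the SAM-type statistic, after quantile normalization, after median centring and with the replicate block, and 0 to 1 without 1 array. With trend and robust variance and among probe sets above the median signal the 1 member was SLC7A11, not ABCB1. The count of 0 lower was 3 of 35 with trend and robust variance (MGST3, GSTA1 and AKR1C3), where 2.41% of all genes were lower and 4.01% higher, and 0 to 1 without 1 array (UGT2B17 without 5-Aza replicate 2, GSTA1 without control replicate 2). After median centring, which moved the median of all genes to -0.15, 1 member had every 5-Aza array above every control array and 8 had every 5-Aza array below. The share of all genes was not counted for that setting, so these counts are not read as a result about the members. Without 1 array the count above was 3 to 11. It was 5 without 5-Aza replicate 2 (share of all genes not counted) and 11 without control replicate 2 (31.4%, against 17.3% of all genes). For the wider list the counts higher and lower were 6 and 8 with trend and robust variance (the 6 included none of DHRS9, CYP24A1 and CYP26A1, with p of 0.045, 0.0255 and 0.0457), 2 and 0 with the SAM-type statistic, 0 and 2 after quantile normalization, 0 and 4 after median centring, 5 and 4 with probe sets above the median signal, 4 and 2 with 16 added, and 2 and 0 with the replicate block. Over all genes the shares higher and lower were 2.41% and 0.627% with the SAM-type statistic and 2.05% and 1.45% after quantile normalization. They were 1.67% and 3.14% after median centring, 3.55% and 1.02% with 16 added, and 2.47% and 0.688% with the replicate block. No share was taken for probe sets above the median signal. Without 1 array the counts of the wider list were 0 to 3 and 0 to 1. There were 0 higher without 5-Aza replicate 3, and 0 lower without 5-Aza replicate 2, 5-Aza replicate 3 or control replicate 3. The cause of these shifts was not tested.

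The replicate numbers do not pair the arrays. With the number as a replicate block, ABCB1 kept its log2 fold change of 1.09 at an unadjusted p of 0.0511, and 0 members passed.

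Signs of single genes turned mostly where the value was near 0. After median centring these were UGT8 (-0.011), GSTA4 (-0.0074), GSTP1 (-0.13), MGST1 (-0.019), NQO1 (-0.11), HMOX1 (-0.081), GCLC (-0.10), GCLM (-0.0023), TXNRD1 (-0.11), SRXN1 (-0.10) and CYP3A5 (-0.035), and after quantile normalization HMOX1 (-0.048). When a gene's probe sets were averaged they were MGST3 (0.54), NQO1 (-0.057), AKR1C1 (0.28), AKR1C2 (-0.0025), CES2 (0.069) and ABCC3 (0.057), and TXNRD1 had 1.42 through its background probe set. With the brightest probe set whatever its suffix they were AKR1C1 (0.18), AKR1C2 (-0.34) and CES2 (0.12). Leaving out 1 array turned the sign of HMOX1 (range -0.20 to 0.56), ABCC2 (-0.66 to 0.73), ABCG2 (-0.38 to 0.60), CYP1A1 (-0.72 to 1.22), EPHX1 (-0.14 to 0.13), ABCC1 (-0.10 to 0.032), GSTP1 (-0.071 to 0.25), AKR1C1 (-0.48 to 0.039), AKR1C2 (-0.078 to 1.06), AKR1B10 (-0.29 to 0.026), ALDH3A1 (-0.90 to 0.089), CYP2S1 (-0.29 to 0.0045), MGST1 (-0.012 to 0.29), NQO1 (-0.099 to 0.31), TXNRD1 (-0.035 to 0.22) and CES2 (-0.095 to 0.040).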
